A study of Mus musculus with 2 samples.

Results

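Collagen genes were followed across the cell types of mouse perigonadal white adipose tissue (gWAT) in 2 single-cell libraries, 1 per diet. All genes named Col, a number, a and a number were taken, which gave 44 of the 32285 genes in the count tables. All 44 are annotated as protein coding. Both libraries hold live eYFP+ cells, from pooled mice by the study's account, sorted from the stromovascular fraction of male Cyp1a1Cre x R26LSL-eYFP mice, in which a cell that has expressed Cyp1a1, and its descendants, carries eYFP. Diets lasted 12 weeks, with 10% fat in the low-fat diet (LFD) and 60% in the high-fat diet (HFD). FICZ, a ligand of the aryl hydrocarbon receptor (AHR), was injected into mice of both groups (10 mg/kg, 5 days ahead of collection), so neither library represents cells without it. Mature adipocytes float away from this fraction and were not sampled. With 1 library per diet there is no replicate: no p-value is given, intervals are exact 95% intervals that cover counting error only, and diet cannot be told apart from any other difference between the libraries.

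Collagens are trimeric proteins of the extracellular matrix whose chains wind into a triple helix. Fibrillar collagens (types I, II, III, V, XI, XXIV and XXVII) form the fibres that give tissue its tensile strength, while type IV collagen forms the sheet of the basement membrane under endothelium and mesothelium and around adipocytes. Type VI makes beaded filaments, is abundant in adipose tissue, and links cells to the fibres. Fibril-associated collagens such as XII, XIV and XVI sit on fibre surfaces. The multiplexins XV and XVIII lie at basement membranes and release anti-angiogenic fragments. In fat, fibroblastic progenitors are main producers of fibrillar collagen, and accumulation of collagen is a feature of obese adipose tissue.

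The classes differ in the glycine repeat that allows the helix to wind, which is shown here because the results below divide by class. In the longest coding sequence of each gene (GENCODE, mm10), the longest run of triplets that each began with a glycine codon was 216 to 344 triplets in the 11 fibrillar genes, with a median of 338. In the 6 type IV genes it was 39 to 66 triplets. In the first, a coding exon of Col3a1, the repeat is unbroken. In the second, a stretch of 1 coding exon of Col4a1, the repeat breaks and resumes. Capitals mark glycine codons.
Col3a1 (mm10, chr1:45325360-45325413, plus strand, coding exon 6): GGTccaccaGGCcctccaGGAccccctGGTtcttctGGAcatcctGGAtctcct
Col4a1 (mm10, chr8:11235147-11235218, minus strand, coding exon 21): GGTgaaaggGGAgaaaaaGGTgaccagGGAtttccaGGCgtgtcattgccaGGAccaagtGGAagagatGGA

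Several members lie next to each other. Col4a1 (chr8:11198423-11312826, minus strand) and Col4a2 (chr8:11312805-11449287, plus strand) are transcribed away from each other, and their annotated extents share 22 bases (chr8:11312805-11312826), shown because both genes were higher in HFD progenitors below.
Shared bases, plus strand: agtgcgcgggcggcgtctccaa
The starts of Col4a4 and Col4a3 on chromosome 1 lie 71 bases apart, and those of Col4a6 and Col4a5 on chromosome X lie 1308 bases apart. Of 44 members, 35 matched the RefSeq promoter table (GRCm38.p6), with 38 promoters. The windows below are the 250 bases before the start of Col3a1, the most abundant member, and of Col8a1, the member with the largest diet ratio. Capitals mark matches on either strand to 4 strings: GCGTG is the core of the AHR response element, GGGCGG is the GC box, TATAAA is the TATA box and CCAAT is the CCAAT box. None of the 4 strings contains another, although matches can overlap.
Col3a1 (mm10, chr1:45311288-45311537, plus strand): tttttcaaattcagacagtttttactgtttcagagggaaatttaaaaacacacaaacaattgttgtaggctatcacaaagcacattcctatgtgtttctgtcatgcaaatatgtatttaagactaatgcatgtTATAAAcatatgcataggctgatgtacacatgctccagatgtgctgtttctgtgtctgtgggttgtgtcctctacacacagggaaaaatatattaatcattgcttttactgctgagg
Col8a1 (mm10, chr16:57754738-57754987, minus strand): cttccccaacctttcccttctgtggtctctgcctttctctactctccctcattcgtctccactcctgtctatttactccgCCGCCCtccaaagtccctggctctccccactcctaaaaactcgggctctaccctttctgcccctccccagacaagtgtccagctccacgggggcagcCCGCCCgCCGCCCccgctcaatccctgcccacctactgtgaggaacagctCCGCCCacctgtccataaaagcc
The Col3a1 window held 1 TATAAA and the Col8a1 window 4 GC boxes. Neither held GCGTG, which 8 of the 38 collagen promoters (21.1%) and 28.2% of all 32851 promoters held. The GC box was in 57.9% of collagen promoters and 32.7% of all promoters, CCAAT in 34.2% and 33.8%, and TATAAA in 13.2% and 12.4%. These matches are a description of letters only.

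The LFD library held 11281 barcodes, of which 10216 passed the filter with a median of 10636.5 UMIs (unique molecules), and the HFD library 9631, of which 8537 passed with a median of 13231. The libraries shared 22 barcodes. Cells were assigned to 13 types by counting markers, none a collagen or other matrix gene, and a type is called "-like" for this reason. Stromal cells with the transcription factor gene Wt1 were split by how many of 10 mesothelial markers (keratins, uroplakins, Msln) they carried: Wt1+ keratin-low cells had at most 2 (3338 LFD and 861 HFD cells), intermediate cells 3 to 5 (970 and 1070), and mesothelial-like cells at least 6 (595 and 1031). Cycling Wt1+ cells (952 and 637) and adipocyte progenitor-like (APC-like) cells (123 and 490), which carried at least 9 of 13 progenitor markers such as Pdgfra, Clec3b and Dpep1, completed the stroma. Wt1 stood at 305 and 322 CPM (UMIs per 1000000 UMIs) in keratin-low cells and at 227 and 213 CPM in APC-like cells. Pecam1, an endothelial marker, stood at 977 and 1318 CPM in endothelial-like cells. Cells passing the gates of more than 1 lineage (4.68% and 5.03%) were left out, with 2 exceptions. Those passing both the mural and the endothelial gate were kept as mural-like, and those passing both the plasma cell and the B cell gate as plasma cell-like. Also left out were cells passing no gate (6.92% and 5.002%), in which collagens made up 2.83% and 2.72% of UMIs.

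Of the 44 members, 31 reached 100 UMIs over both libraries. The other 13 stayed below, the highest being Col13a1 with 74, and 2 of them (Col9a1 and Col26a1) had no UMI. Because the kit tags the 3′ end of each molecule, UMIs do not scale with transcript length, and levels are given as CPM of the cell type and library. Collagens made up 2.69% of all UMIs of LFD stromal cells and 2.49% of HFD stromal cells. Col3a1, Col1a2 and Col1a1 supplied 86.7% of all collagen UMIs of the LFD library and 82.4% of those of the HFD library.

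APC-like cells carried the most collagen. In them, 5.84% of LFD and 6.32% of HFD UMIs were collagen, against 3.25% and 2.90% in Wt1+ keratin-low cells, 2.12% and 2.23% in intermediate cells, 2.13% and 1.87% in cycling cells, and 1.60% and 1.75% in mesothelial-like cells. The APC-like level was 3.66 times the mesothelial-like level in the LFD library and 3.62 times in the HFD library. Endothelial-like cells held 0.410% and 0.488%. The order of APC-like, keratin-low and mesothelial-like cells was the same in both libraries, while cycling cells fell above intermediate cells in the LFD library and below them in the HFD library. Cells of 1 type also differed: the cell at the 90th percentile of LFD APC-like cells had 9.17% collagen and that at the 10th percentile 2.93%.

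**Figure D1:**
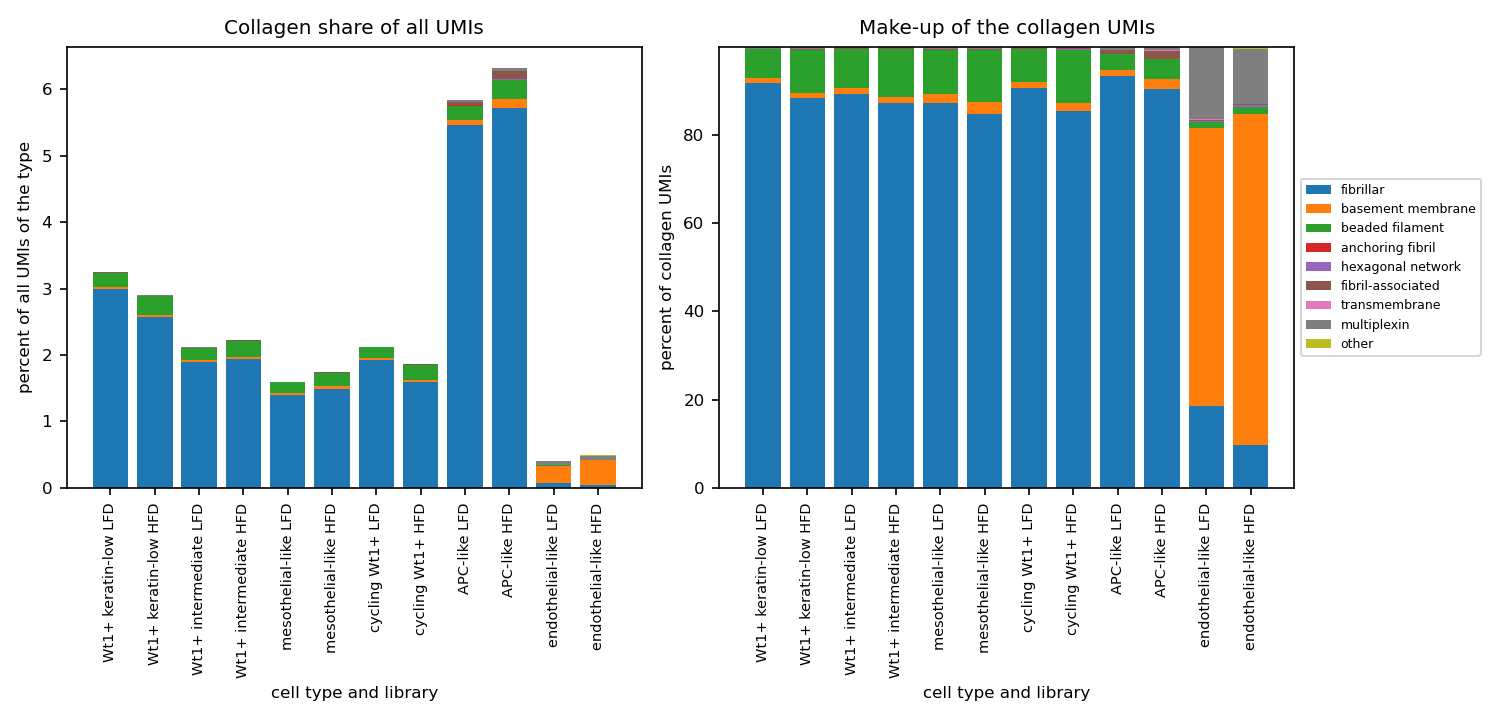
Stacked bars show, on the left, collagen UMIs as a percent of all UMIs of a cell type (y axis) for 6 cell types in each library (x axis), coloured by collagen class, and on the right the share of each class in those collagen UMIs. APC-like cells stand highest, at 5.84% and 6.32%, and endothelial-like cells differ from all stromal types in that type IV collagen takes 63.0% and 75.0% of their collagen UMIs. There are no error bars because each bar is 1 library.

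Within the Wt1+ types, cells with more mesothelial markers had a lower collagen share. In HFD cells it was lower at each added marker, and in LFD cells at each except the 7th and 10th. It was 3.69% in the 1719 LFD cells without such a marker and 1.24% in the 36 cells with all 10, and 3.75% in 214 and 1.27% in 87 HFD cells. Col1a1, a chain of type I collagen, went from 9366 to 2454 CPM in LFD and from 8921 to 2314 CPM in HFD cells. Col4a1, a chain of the basement membrane network, did not follow this course: it stood at 212 CPM without markers, 106 CPM with 3 and 216 CPM with 10 in LFD cells, and at 212, 95.9 and 440 CPM in HFD cells. Col4a1 was thus lowest in cells with 3 markers and higher at both ends. Col6a1 went from 1033 to 636 CPM in LFD and from 1546 to 969 CPM in HFD cells. Median UMIs per cell were 10904 without markers and 15744.5 with 10 in the LFD library, and their part in these courses was not tested.

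**Figure D2:**
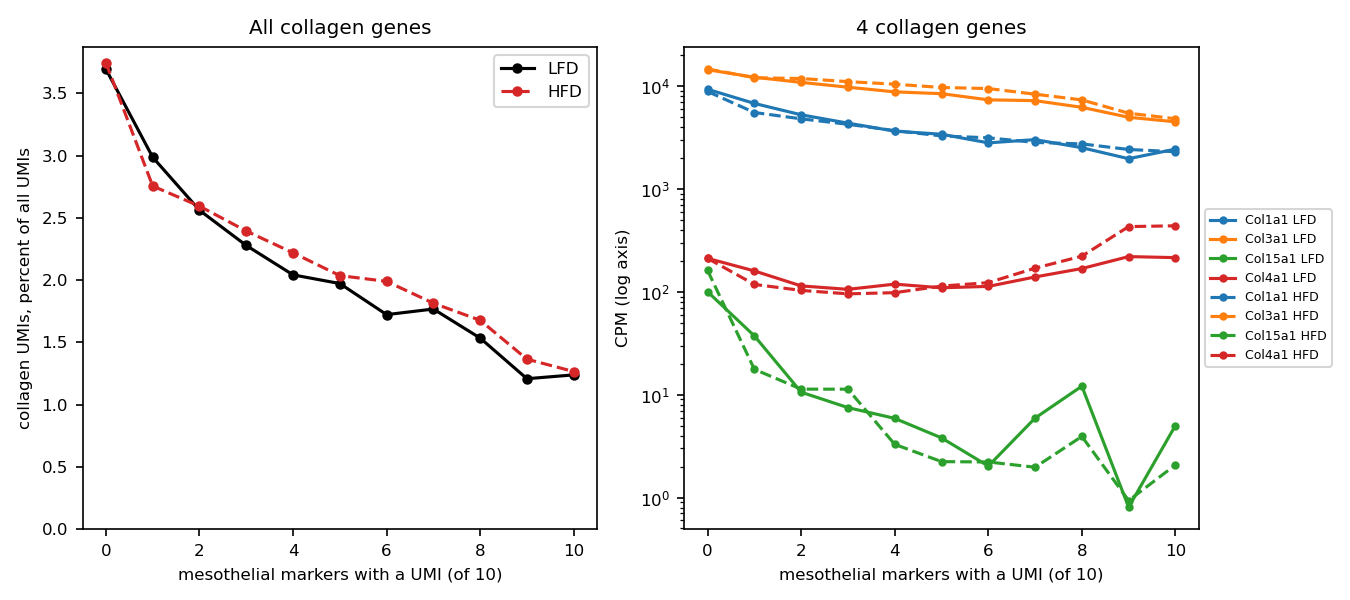
Left, collagen UMIs as a percent of all UMIs (y axis) against the number of mesothelial markers with a UMI in a cell (x axis, 0 to 10) in non-cycling Wt1+ cells of each library; right, the CPM of 4 genes on a log axis. Each point pools all cells with that number of markers in 1 library; Col1a1, Col3a1 and Col15a1 are lower at 10 markers than at 0, while Col4a1 goes from 212 CPM to 216 CPM (LFD) and 440 CPM (HFD) through lower values.

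Fibrillar collagens dominated every stromal type, at 93.5% and 90.4% of collagen UMIs in APC-like cells, 91.9% and 88.4% in keratin-low cells and 87.3% and 84.9% in mesothelial-like cells. Col3a1, the chain of type III collagen, which makes thin reticular fibres, reached 26768 CPM (LFD) and 28833 CPM (HFD) in APC-like cells. Col1a1 reached 13103 and 12957 CPM there, and Col1a2, its partner chain, 12378 and 12445 CPM. The type V chains, which set fibre diameter, were next: Col5a2 stood at 1200 and 1566 CPM, Col5a1 at 827 and 960 CPM and Col5a3 at 215 and 282 CPM in APC-like cells. All 6 of these genes were highest in APC-like cells in both libraries, mural-like cells apart.

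Col24a1 did not share this order. This minor fibrillar gene was at 116 and 139 CPM in keratin-low cells and only 47.5 and 19.4 CPM in APC-like cells, 0.408 times (0.316 to 0.518) and 0.140 times (0.114 to 0.170) the keratin-low level. Col24a1 overlaps another annotated gene on its strand, so some of its reads may have been left out of the counts. Col27a1 was highest at 69.9 CPM in LFD APC-like cells and 75.4 CPM in HFD keratin-low cells. Col11a2 did not pass 5.0 CPM in any type, and its highest values rested on immune cells with 1 or a few UMIs.

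Among the beaded filament genes, the core chains Col6a1 and Col6a2 were present throughout the stroma. Col6a1 was highest in keratin-low cells at 1006 and 1443 CPM, and Col6a2 at 755 and 1057 CPM, and both were lower in APC-like cells, at 0.872 and 0.742 times the keratin-low level for Col6a1. Col6a3, the remaining core chain, went the other way, at 422 and 621 CPM in APC-like cells against 236 and 254 CPM in keratin-low cells. As a result, Col6a3 had 0.481 and 0.581 UMIs per Col6a1 UMI in APC-like cells but 0.235 and 0.176 in keratin-low cells. Col6a5, an alternative chain, was also highest in APC-like cells (256 and 401 CPM). Col6a6 was highest in LFD intermediate cells (20.8 CPM) and in HFD APC-like cells (45.8 CPM), and Col6a4 stayed at or under 1.83 CPM in these types. Col6a1 and Col6a2 kept a ratio of 1.33 and 1.37 in keratin-low cells and of 1.35 and 1.49 in APC-like cells.

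Chains also tracked each other from cell to cell to different degrees. Over the 3338 LFD keratin-low cells, Spearman's rho was 0.870 between Col1a1 and Col1a2, 0.688 between Col6a1 and Col6a2, and 0.522 between Col4a1 and Col4a2, but 0.181 between Col1a1 and Col4a1. Col1a1 and Col3a1, which belong to different trimers, stood at 0.726. In the 861 HFD keratin-low cells that pair stood at 0.555, the type VI pair at 0.703 and the type IV pair at 0.583, so the order of the pairs differed between the libraries. These cells share a library, and depth differs among them and among the genes, so the values are a description only. Col1a1 and Col1a2 stood at 1.01 and 1.04 UMIs of the first per UMI of the second in keratin-low cells.

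**Figure D3:**
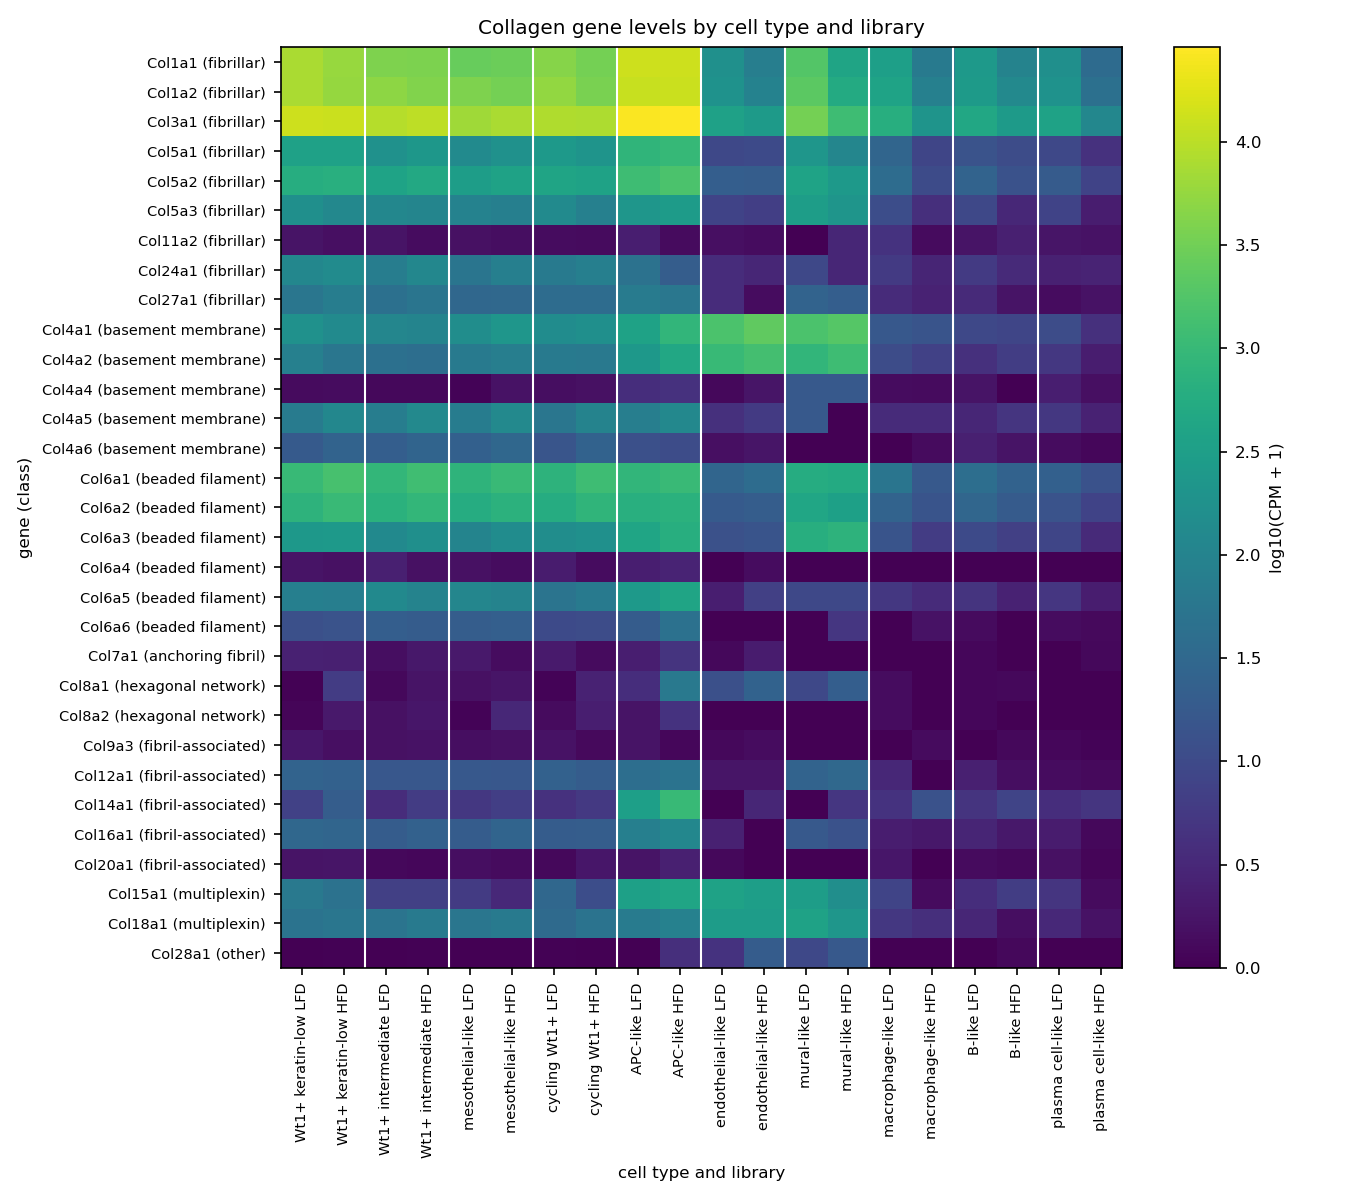
Colour gives log10(CPM + 1) of each collagen gene with at least 100 UMIs (y axis, class in brackets) in 10 cell types and both libraries (x axis). Most fibrillar and beaded filament genes are bright over the 5 stromal types, Col11a2 and Col6a4 being among the exceptions. Col14a1 is bright only in APC-like cells among the types drawn, and Col4a1, Col4a2, Col15a1 and Col18a1 stand out in endothelial-like and mural-like cells.

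Among the fibril-associated collagens, Col14a1, which binds fibres through decorin, marked APC-like cells. It stood at 335 and 999 CPM there and at 6.16 and 19.5 CPM in keratin-low cells, 54.3 and 51.3 times apart. After each cell was thinned to 2000 UMIs, 41.5% of LFD (32.7 to 50.7%) and 76.9% of HFD APC-like cells (73.0 to 80.6%) had a Col14a1 UMI, against 0.96% and 2.93% of keratin-low cells. In B-like cells, which should lack it, the shares were 0.72% and 0.88%. Without thinning, 82.1% and 94.5% of APC-like cells had a UMI, at median depths of 10557 and 10594.5 UMIs. Col16a1 (83.9 and 115 CPM) and Col12a1 (40.5 and 48.3 CPM) were also highest in APC-like cells. Col9a3 and Col20a1 did not exceed 1.46 CPM in the stromal types, and Col20a1 overlaps another gene on its strand. Among the remaining classes, the anchoring fibril gene Col7a1 peaked at 1.55 CPM in LFD keratin-low and 3.66 CPM in HFD APC-like cells, and Col8a2 at 0.70 and 3.48 CPM in APC-like cells.

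Leaving out types with under 100 cells in either library, endothelial-like cells had the highest levels of the main basement membrane collagens. Col4a1 stood at 1554 and 2319 CPM and Col4a2, its partner in the ubiquitous network, at 1021 and 1334 CPM, and 88.8% and 86.2% of endothelial-like cells thinned to 2000 UMIs had a Col4a1 UMI against 1.27% and 1.51% of B-like cells. The multiplexins Col15a1 (374 and 313 CPM) and Col18a1 (288 and 294 CPM) were high in the same cells. Col15a1 reached 342 and 410 CPM in APC-like cells as well, but 4.94 and 2.32 CPM in mesothelial-like cells, and the last of these lies below the B-like level of 5.37 CPM. The alternative type IV chains had another order: Col4a5 was spread over the stroma, from 55.0 to 79.0 CPM in LFD and from 97.6 to 124 CPM in HFD types, and Col4a6 was highest in mesothelial-like cells (22.2 and 30.0 CPM). Col4a4 did not pass 3.29 CPM outside mural-like cells, where it had 16.7 and 16.6 CPM. Mural-like cells were few (14 and 69), carried a median of 9.5 and 10 of the 12 endothelial markers as well, and are not compared further.

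Col1a1, Col1a2 and Col3a1 of endothelial-like cells did not exceed the level in B-like cells, which should lack them and serve here as a reference level. Col3a1 took 41.0% and 45.1% of collagen UMIs in stromal cells and 40.9% and 44.7% in B-like cells, in which collagens made up 0.117% and 0.061% of UMIs. The make-up was not the same throughout: fibril-associated collagens took 0.674% and 1.53% of collagen UMIs in B-like cells against 0.224% and 0.556% in the stroma, and type IV 1.35% and 2.89% against 1.20% and 1.79%. Endothelial-like cells had 360 and 266 CPM of Col3a1 against 480 and 272 CPM in B-like cells. Of the 31 genes, 6 had a counting interval wholly above that of B-like cells in endothelial-like cells of both libraries: Col4a1, Col4a2, Col8a1, Col15a1, Col18a1 and Col28a1. Other immune cells did not all match the B-like level. In the LFD library Col3a1 stood at 369 CPM in plasma cell-like, 631 CPM in macrophage-like, 1407 CPM in T/ILC2-like and 2056 CPM in neutrophil-like cells, and collagens made up 0.307% of T/ILC2-like and 0.454% of neutrophil-like UMIs. In the HFD library T/ILC2-like cells stood at 237 CPM of Col3a1, below B-like cells, and neutrophil-like cells at 397 CPM on 20 UMIs. Col3a1 took 45.9% of collagen UMIs in LFD T/ILC2-like cells and 39.7% in LFD macrophage-like cells, against 41.0% in the stroma. The source of the collagen UMIs of immune cells was not tested. The B-like level is used below as a reference, and a value at or under it is not read as a difference between diets.

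The diet comparison asked whether the collagens of each type differed between the libraries. The HFD to LFD ratio of CPM was read for genes with at least 50 UMIs in a type, and a ratio was called where it was at least 1.5, or at most 1/1.5, with an interval that left out 1. Over 6 types, 128 pairs of a collagen gene and a type could be read, of which 20 were called higher and 8 lower in HFD, covering 16 of 26 genes. Of all genes, 5.7% to 15.6% were called higher and 2.65% to 6.75% lower, depending on the type. The counts include pairs under the B-like level in at least 1 library: Col1a1 and Col1a2 in endothelial-like, Col14a1 in intermediate and Col15a1 in mesothelial-like cells. The median ratio of all genes was 1.06 to 1.10 in these types, a shift of 0.087 to 0.136 on the log2 scale that moves single ratios with the scaling.

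In APC-like cells, 7 of 23 collagen genes were called higher (background over all genes, 11.7%) and 1 lower (4.19%), with a median ratio of 1.25 against 1.08 for all genes. The libraries differed near the gate: 56 of 123 LFD but 111 of 490 HFD cells had exactly 9 markers, and 147 and 72 stromal cells had 1 fewer. With the gate at 8 markers the Col14a1 ratio below was 4.51 and that of Col8a1 49.3. Col4a1 had 373 CPM in LFD APC-like cells and 874 CPM in HFD ones, a ratio of 2.35 (2.15 to 2.57), and Col4a2 at 240 and 464 CPM, a ratio of 1.93 (1.72 to 2.17). Both chains of the head-to-head pair shown above were thus higher in HFD. Col14a1 was at 335 and 999 CPM, a ratio of 2.98 (2.72 to 3.28). Among the type VI genes, Col6a6 had a ratio of 2.42 (1.63 to 3.75) and Col6a5 of 1.57 (1.40 to 1.75), the latter at 1.45 under median-ratio scaling, which divides by the median ratio of all genes. Col4a5 was at the limit with 1.52 (1.24 to 1.87), and at 1.40 with the gate lowered to 8 markers, a choice made after seeing the data. Col8a1, a short-chain collagen of subendothelial matrix, had 4 UMIs in LFD and 345 in HFD cells, a ratio of 22.6 (8.74 to 83.4). Col24a1 was lower in HFD, with 68 and 106 UMIs and a ratio of 0.408 (0.298 to 0.562), but was at 0.981 where only cells with at least 2000 UMIs and under 5% mitochondrial UMIs were kept, which left 32 LFD cells.

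The 3 major fibrillar genes did not share these differences in APC-like cells: the ratio was 1.08 for Col3a1, 1.01 for Col1a2 and 0.989 for Col1a1. The fibrillar class stood at 1.05 (1.04 to 1.05), type IV at 2.08 (1.95 to 2.22) and the fibril-associated class at 2.53 (2.33 to 2.74). Most UMIs of the fibril-associated class were Col14a1, with 479 in LFD and 5457 in HFD cells. Col16a1 had 120 and 629 UMIs and Col12a1 58 and 264, and neither was called. The APC-like cells of the libraries also differed in their markers: 9 of 13 were at least 1.5-fold higher in HFD, 1 was at most 1/1.5, and the summed level of the list was 6015 and 8095 CPM. Pi16 went from 58.0 to 141 CPM, Dpp4 from 18.2 to 89.5 CPM and Cxcl12 from 2119 to 1200 CPM. A split by Pi16 left 39 LFD and 233 HFD cells with a Pi16 UMI. Col14a1 was at 451 CPM (LFD) and 1196 CPM (HFD) in APC-like cells with a Pi16 UMI and at 286 and 807 CPM in those without, and Col4a1 at 345 and 775 CPM with and at 384 and 970 CPM without. Both were higher in HFD on either side of the split. Col6a5 was not: it was at 293 and 242 CPM with a Pi16 UMI and at 240 and 554 CPM without. Having a Pi16 UMI does not make the cells of the libraries alike, and the part of the markers, Pi16 included, in these ratios was not tested.

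In Wt1+ keratin-low cells, 3 of 24 genes were called higher (5.82% over all genes) and 1 lower (5.95%). Col4a5 was at 71.9 and 114 CPM, a ratio of 1.58 (1.49 to 1.68), and Col4a2 at 85.2 and 55.9 CPM, a ratio of 0.656 (0.606 to 0.709). The Col4a2 call was lost at 0.786 in cells passing the stricter filter, 0.811 with cells typed by likelihood (by the profile of each type over all genes but the collagens) and 0.789 as a mean of per-cell CPM. Col14a1 was at 6.16 and 19.5 CPM, a ratio of 3.16 (2.65 to 3.77), against 3.76 and 7.32 CPM in B-like cells of the same libraries. Col8a1 had 3 UMIs in LFD and 72 in HFD cells, a ratio of 68.1 (22.4 to 338). These 2 signals came from few cells: 72.8% of LFD and 78.8% of HFD Col14a1 UMIs lay in the 18.2% and 24.97% of keratin-low cells that carried 7 or 8 of the 13 progenitor markers, just under the APC-like gate, and 72.2% of the HFD Col8a1 UMIs did. The 72 Col8a1 UMIs lay in 17 cells, 1 of which held 18. No fibrillar gene was called, and their ratios ran from 0.714 for Col5a3 to 1.36 for Col27a1, with Col1a1 at 0.770, Col1a2 at 0.746, Col3a1 at 0.962 and Col24a1 at 1.19. The make-up of the keratin-low cells also differed: 1719 of 3338 LFD but 214 of 861 HFD cells had no mesothelial marker, and the summed level of the 10 markers, none of them at 0, was 91.1 and 167 CPM, with 6 higher in HFD. Among cells with no such marker, Col1a1 stood at 9366 and 8921 CPM and Col4a1 at 212 CPM in both libraries. The part of this shift in the Col4a2 call was not tested.

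In intermediate cells, 3 of 22 genes were called higher (5.7%) and 0 lower (3.28%). Col4a5 had a ratio of 1.60 (1.49 to 1.73) and Col24a1 of 1.53 (1.42 to 1.65), the latter at 1.28 with cells typed by likelihood and 1.42 under median-ratio scaling. Col14a1 had a ratio of 1.95 (1.32 to 2.94), but its levels of 2.68 and 5.22 CPM lay below the 3.76 and 7.32 CPM of B-like cells, and the ratio fell to 0.926 without cells above 25000 UMIs. In mesothelial-like cells, 2 of 22 genes were called higher (8.45%) and 1 lower (2.65%). Col4a5 had a ratio of 1.71 (1.57 to 1.87) and Col24a1 of 1.53 (1.38 to 1.70), or 1.40 under median-ratio scaling. Col15a1, with 44 and 42 UMIs, had a ratio of 0.470 (0.301 to 0.734), and its HFD level of 2.32 CPM was below the 5.37 CPM of B-like cells. Col4a1 was not called, at 153 and 218 CPM and a ratio of 1.43.

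In cycling Wt1+ cells, 3 of 22 genes were called higher (7.27%) and 2 lower (3.31%). Col6a1 had a ratio of 1.53 (1.499 to 1.57), or 1.40 under median-ratio scaling, Col4a6 of 1.70 (1.43 to 2.01) and Col4a5 of 1.77 (1.63 to 1.93). Col15a1 had a ratio of 0.340 (0.280 to 0.411), from 29.9 to 10.2 CPM, and Col5a3 of 0.645 (0.601 to 0.692), from 134 to 86.3 CPM. Of the 10 mesothelial markers, 9 were higher in HFD cycling cells and none was at 0, with a sum of 642 CPM in LFD and 1171 CPM in HFD, and the part of this shift in the ratios was not tested. Col4a5 was called higher in all 5 stromal types, at 1.52 to 1.77, although under median-ratio scaling it stayed above 1.5 in only the mesothelial-like and cycling cells. The beaded filament class as a whole was 1.27 to 1.44 times the LFD level in the 5 stromal types, below the threshold in each.

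In endothelial-like cells, 2 of 15 genes were called higher (15.6%) and 3 lower (6.75%). Col28a1, a gene at 3.51 and 18.5 CPM there and at or below 2.93 CPM in the stroma, had 13 and 46 UMIs and a ratio of 5.28 (2.80 to 10.6). Col8a1 had 42 and 61 UMIs and a ratio of 2.17 (1.44 to 3.29), or 1.31 as a mean of per-cell CPM. Col13a1, a transmembrane collagen, had 52 UMIs in LFD and 9 in HFD cells, a ratio of 0.258 (0.112 to 0.529). Col1a1 (0.463) and Col1a2 (0.498) were called lower, but both were below the B-like level of their library. The main endothelial collagens were not called: Col4a1 had a ratio of 1.49 (higher in HFD, just under the threshold), Col4a2 of 1.31, Col15a1 of 0.836 and Col18a1 of 1.02. Type IV collagen took 63.0% of endothelial collagen UMIs in LFD and 75.0% in HFD cells, and fibrillar genes 18.6% and 9.77%. Since Col1a1, Col1a2 and Col3a1 did not exceed the B-like level, these shares are not read as a difference between diets. The 10 mural markers were all higher in HFD endothelial-like cells, summing to 50.5 CPM in LFD, where 1 was at 0, and 218 CPM in HFD, with Rgs5 at 27.8 and 149 CPM. HFD mural-like cells had 20.7 CPM of Col8a1, 16.6 CPM of Col28a1 and 1954 CPM of Col4a1. The part of mural RNA in the endothelial-like values was not tested.

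**Figure D4:**
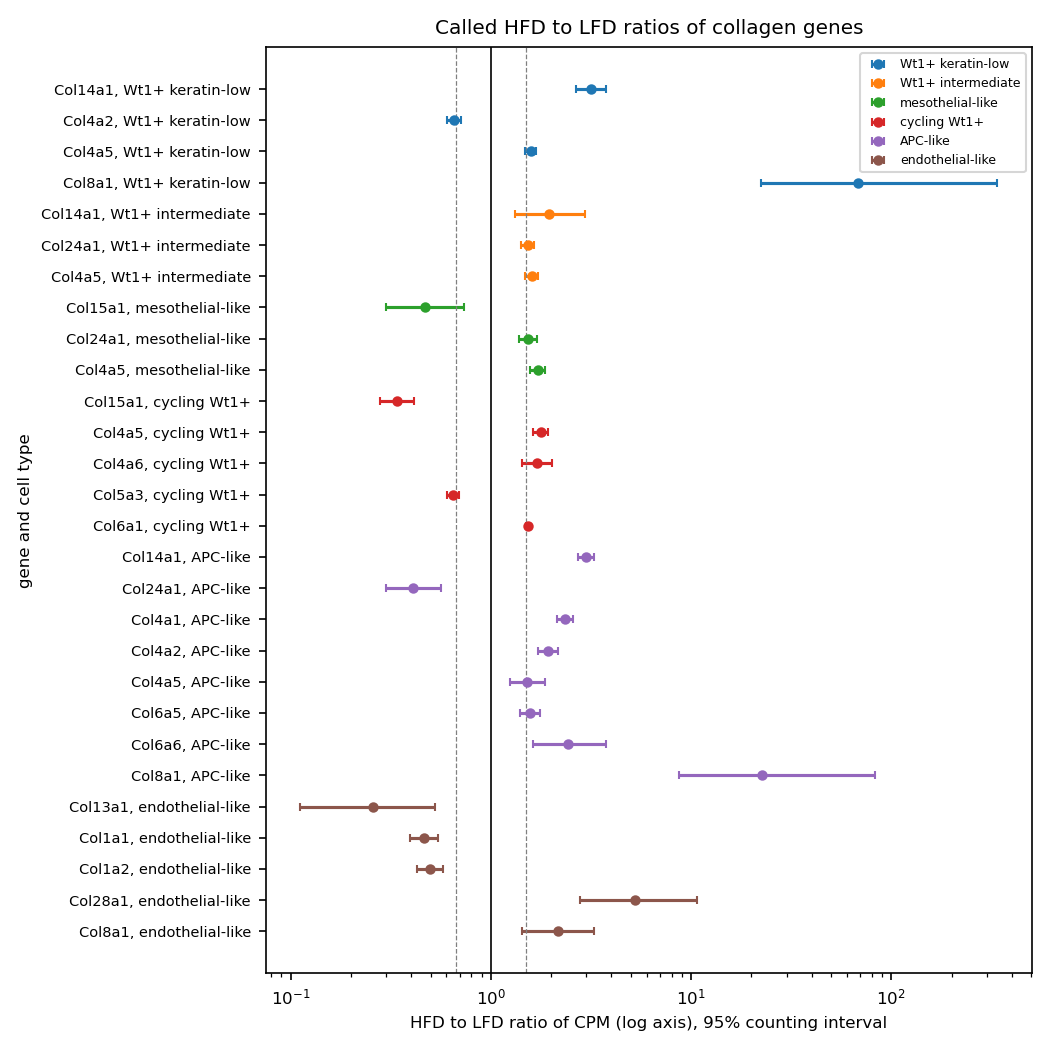
Points give the HFD to LFD ratio of CPM (x axis, log scale) of the 28 called pairs of a collagen gene and a cell type (y axis), coloured by type, with the 95% counting interval; the solid line marks 1 and the dashed lines 1.5 and 1/1.5. Of these, 20 lie to the right and 8 to the left, and the widest intervals belong to Col8a1, which rested on 3 and 4 LFD UMIs.

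Genes that make, process or bind collagen were read from 8 lists, against the shares of all genes called in the same cells (5.82% higher and 5.95% lower in keratin-low, 11.7% higher and 4.19% lower in APC-like cells). In keratin-low cells, no gene of the folding and export list was called among 10 tested, Serpinh1, the collagen chaperone HSP47, standing at 1614 and 1410 CPM (ratio 0.874). Of 12 hydroxylation genes, 1 was lower, near the 5.95% of all genes. It was the prolyl hydroxylase subunit P4ha2, from 52.3 to 33.2 CPM (0.635), while Ppib, the most abundant, was at 0.935. Of 5 crosslinking genes, 2 were lower (5.95% of all genes). Lox, the lysyl oxidase that crosslinks fibres, went from 418 to 268 CPM (ratio 0.640, 0.618 to 0.663), and Tgm2, a transglutaminase, from 51.6 to 29.5 CPM (0.572). In APC-like cells 1 of 6 was higher, Loxl2 (1.53), chosen here after its value was seen, and 1 lower, Tgm2 (0.603), with a median of 1.22 against 0.861 in keratin-low cells. Of 7 propeptide processing genes, 1 was higher (5.82% of all genes), the enhancer Pcolce2 (1.86), with Pcolce at 0.920. In APC-like cells 2 of 5 propeptide genes were higher (11.7% of all genes), Pcolce2 among them (2.55), and no hydroxylation or folding gene was called among 11 and 10 tested.

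The list of collagen-binding proteoglycans and glycoproteins had the most genes called in keratin-low cells, 8 of 18 higher (5.82% of all genes) and 0 lower (5.95%). Its median ratio there was 1.26 against 1.06 for all genes. Aspn had a ratio of 4.39, Thbs2 of 3.46 and Postn of 3.24, while Dcn, the most abundant member, stood at 5861 and 5410 CPM (0.923). In APC-like cells, 11 of 17 were higher (11.7% of all genes) and 0 lower (4.19%), with a median of 1.97 against 1.08, and Postn went from 593 to 1365 CPM. Of 13 basement membrane partners, 2 were higher in keratin-low cells (5.82% of all genes), among them the laminin chain Lama2 (3.01), with Sparc, the most abundant, at 0.708. In APC-like cells, 4 of 10 were higher (11.7% of all genes), Lama2 going from 35.6 to 117 CPM (3.27). Of 6 collagen receptors, 1 was higher in keratin-low cells (5.82% of all genes), the integrin chain gene Itga10 (2.15), and 3 of 6 in APC-like cells (11.7%). Itgb1, the shared integrin chain, was at 1.27 in keratin-low cells.

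Of 13 genes of the TGF-beta list, the main inducer of collagen in fibroblasts, 2 were higher in keratin-low cells (5.82% of all genes). Ccn2, a target, had 24 and 66 UMIs (7.80), and the inhibitor Smad7 went from 51.9 to 109 CPM (2.11). Tgfbr2, the most abundant, was at 1.08. In APC-like cells, 3 of 13 were higher (11.7% of all genes) and 0 lower (4.19%).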

How the data were processed

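Single-cell libraries were made by the submitters with the 10x Single Cell 3' v3 kit. The authors' deposited matrices hold raw UMI counts per gene and cell; per the submitters' processing notes, Cell Ranger 4.0.0 and the mm10 build were used, and the annotation release is not given in the sources used here. Here, barcodes with 500 to 40000 UMIs, at least 100 genes and under 12.5% mitochondrial UMIs were kept. Cells were typed by the number of markers with a UMI (at least 5 of 12 for endothelial, 3 of 6 Wt1 stroma markers, 9 of 13 for APC-like cells); the markers held no collagen, but the gates were settled after the data had been seen. Cells of several lineages were removed, and no doublet caller was run. Cells passing the mural and endothelial gates were however called mural-like, and those passing the plasma cell and B cell gates plasma cell-like. UMIs were summed per type and library and scaled to CPM.

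No significance test was run, since each diet had 1 library. Poisson, Clopper-Pearson and conditional binomial 95% intervals were computed with scipy 1.17.1. PCR duplicates were collapsed by UMI, and intervals cover counting error only. Diet ratios were read only for types with 100 or more cells in each library under the main filter. The alternatives kept these types whatever their number of cells. Shares of cells were taken after thinning to 2000 UMIs. Every collagen gene with at least 100 UMIs, every gene called in a stromal or endothelial type, and in each pathway list the most abundant gene and up to 3 genes called in keratin-low cells were named. Some pathway genes that this rule names are not reported here. In APC-like cells the pathway genes named are ones named for keratin-low cells, Loxl2 apart. The members and lists were chosen with earlier results of these data known. Alternatives were the cell filter, cells of high UMI count, the typing rule, scaling, the UMI minimum, the fold, thinning and subtraction of the B-like level. GENCODE M21 and RefSeq promoters gave sequences.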

Additional observations from a re-analysis of the deposited data

Results flagged for a closer look

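For 2 genes the HFD to LFD ratio was called in opposite directions in 2 cell types. The ratio of Col24a1 was 1.53 in mesothelial-like and 0.408 in APC-like cells, a quotient of 3.76. The ratio of Col4a2 was 1.93 in APC-like and 0.656 in Wt1+ keratin-low cells, a quotient of 2.94. With 1 library per diet, the differences between types were not tested, and the Col24a1 value in APC-like cells rests on 68 LFD and 106 HFD UMIs. With the stricter cell filter that value was 0.981. The call of Col4a2 in keratin-low cells was lost at 0.786 with that filter, at 0.811 with cells typed by likelihood and at 0.789 as a mean of per-cell CPM, so neither pair of opposite calls held under every alternative.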

How the results depend on the processing

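No paired analysis was possible because each diet had 1 library. Of the 28 called ratios, 8 kept their call under every alternative that gave a value. Over all of them, 251 alternative values kept the call, 49 lost it and 1 reversed, Col14a1 in intermediate cells at 0.926 without cells above 25000 UMIs. A lower UMI minimum, or none, leaves a called ratio unchanged. Those values could not lose a call and are counted among the kept ones. The cause was not tested for any of these changes.

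Pairs called higher numbered 20, but 13 under median-ratio scaling and 8 at a 2-fold threshold. Pairs called lower numbered 8, but 5 with the stricter cell filter, 5 at a minimum of 200 UMIs and 4 after subtraction of the B-like level. At a 2-fold threshold, 2 genes were called in keratin-low, 0 in intermediate, 1 in mesothelial-like, 1 in cycling and 5 in APC-like cells. The stricter filter gave 8 in mesothelial-like, 8 in cycling and 2 in endothelial-like cells. Intermediate cells had 1 with cells typed by likelihood and 1 under median-ratio scaling. Cycling cells had 10 at a minimum of 10 UMIs and 10 with no minimum, and endothelial-like cells 2 at a minimum of 200 UMIs and 3 after subtraction.

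Collagen shares of the stromal and endothelial-like types moved under most alternatives. Of the alternative values, 50 lay outside the counting interval of the main value and 10 inside it. The APC-like to mesothelial-like ratio of the collagen share was 4.55 (LFD) and 3.28 (HFD) with the stricter filter, 3.76 and 3.71 without cells above 25000 UMIs, 4.26 and 3.74 by likelihood, 3.09 and 3.32 with the APC-like gate at 8 markers, and 3.87 and 3.71 after subtraction. The gate at 8 markers was chosen after seeing the data. With it, the fibrillar share in APC-like cells was 92.7% (LFD) and 90.2% (HFD), and the stricter filter gave 89.2% (HFD). The type IV share in endothelial-like cells was 65.1% (LFD) and 76.7% (HFD) by likelihood, and 76.1% (HFD) with that gate. The share of APC-like cells with a Col14a1 UMI was 24.1% and 68.6% with that gate, 26.8% and 57.1% when thinned to 1000 UMIs, and 82.1% and 94.5% unthinned. Pathway genes called lower numbered 2 by likelihood in keratin-low cells, and in APC-like cells 3 with the stricter filter, 0 by likelihood and 3 under median-ratio scaling.

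Depth limits the rare genes: 13 collagen genes had under 100 UMIs, and APC-like values of the LFD library rest on 123 cells, 32 of which passed the stricter filter.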
